A study of Mus musculus with 4 samples.

Results

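Transcription factors that set endodermal and lung identity were examined in 4 mouse lines of small cell lung cancer (SCLC), as the 8 genes Nkx2-1, Foxa1, Foxa2, Hnf4a, Gata6, Sox2, Sox9 and Sox4. The genes were chosen by symbol from a table of 54641 gene symbols, and all 8 were found, each in 1 row. The lines came from an autochthonous mouse model with conditional deletion of Rb1 and Trp53 in the lung after intratracheal Cre virus, a deletion that all lines share. P1, P4 and P5 each go back to the lung tumor of 1 mouse, and M1 goes back to a metastasis in the liver of another mouse, although the labels give lung as the source of every line. All lines were grown untreated in serum-containing medium, and 1 RNA library was sequenced for each. The same number appears in the column names for P5 and P1. No source explains it, and whether it marks a common origin was not tested. The promoter that drove Cre, the age of the animals at harvest and whether a line is 1 clone are not stated in the sources.

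These factors act in layers. FOXA1 and FOXA2 are pioneer factors that open chromatin in endoderm, and they work with NKX2-1 in the lung and with HNF4A in the liver and gut. NKX2-1 specifies the respiratory part of the foregut and maintains alveolar and airway identity, and in mouse lung tumors its loss is known to release a gut-like program that depends on FOXA factors and HNF4A. GATA6 acts in early endoderm and in lung and gut epithelium. SOX2 marks proximal airway, SOX9 the distal tips of the growing lung, and SOX4 is expressed widely in progenitor cells and in neuroendocrine tumors.

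Values are counts per 1000000 reads assigned to genes (CPM). The step between values corresponded to between 9527011 and 13890726 assigned reads per library. The number of genes detected was unequal, with 17824 and 20578 symbols above 0 in P1 and P5 against 7985 in P4 and 10074 in M1. P1 and P5 shared 5182 genes at 5 to 50 CPM, of which P4 lacked reads for 39.8%, M1 for 24.6% and both for 15.4%. A 0 in P4 or M1 is therefore given as listed. A count of 3 reads would be between 0.216 and 0.315 CPM, and intervals given below are exact 95% Poisson intervals that cover counting error only.

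The label SCLC was checked against 12 neuroendocrine markers. All 12 were above 0 in P5, 6 in M1, 3 in P1 and 1 in P4, where the adhesion molecule gene Ncam1 was the only one. Some of these values are of few reads, and P4 and M1 held fewer genes of any kind. The number at 10 CPM or more was 8 in P5, 5 in M1 and 1 each in P1 and P4. Ncam1 was high in every line, from 299 CPM in P4 to 1057 CPM in P5. Neurod1, a neuroendocrine transcription factor gene, reached 134 CPM in M1, was at 0.0868 CPM in P5 and had no reads in P1 or P4. The lineage factors below are thus described in lines that differ in these markers.

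The starts of Foxa1 and Hnf4a are shown first, since each was read in 3 lines and near or at 0 in a single line, Foxa1 in M1 and Hnf4a in P5. Each sequence is taken from RefSeq (GRCm38.p6, the assembly of mm10) and runs from 250 bases before an annotated start to 50 bases after it. For Hnf4a, which is known to start from an upstream and a downstream promoter, both are given. Capitals mark the letters TGTTTAC, known to be bound by FOX factors, or AGATAA, known to be bound by factors of the other family named here, GATA, on either strand.
Foxa1, chr12:57546062-57546361, minus strand: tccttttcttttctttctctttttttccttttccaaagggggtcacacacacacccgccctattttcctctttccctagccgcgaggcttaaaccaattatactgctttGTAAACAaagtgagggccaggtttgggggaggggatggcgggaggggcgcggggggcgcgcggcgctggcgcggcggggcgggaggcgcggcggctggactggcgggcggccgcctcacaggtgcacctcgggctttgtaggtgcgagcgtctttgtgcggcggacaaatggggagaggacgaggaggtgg
Hnf4a upstream start, chr2:163506607-163506906, plus strand: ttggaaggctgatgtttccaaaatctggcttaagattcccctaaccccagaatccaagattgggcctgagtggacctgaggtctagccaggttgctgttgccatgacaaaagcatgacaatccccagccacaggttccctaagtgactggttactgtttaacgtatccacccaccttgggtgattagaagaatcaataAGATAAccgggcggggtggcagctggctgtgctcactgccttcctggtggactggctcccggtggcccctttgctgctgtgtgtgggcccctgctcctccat
Hnf4a downstream start, chr2:163546905-163547204, plus strand: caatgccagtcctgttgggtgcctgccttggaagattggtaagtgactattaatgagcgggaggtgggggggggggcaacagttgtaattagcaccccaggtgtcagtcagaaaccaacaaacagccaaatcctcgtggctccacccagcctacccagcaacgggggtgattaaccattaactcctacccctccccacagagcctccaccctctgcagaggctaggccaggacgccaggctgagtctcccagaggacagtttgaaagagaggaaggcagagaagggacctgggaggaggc

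The FOX letters of Foxa1 lie on the opposite strand, with their first base 141 bases before the start shown. That start lies inside the annotated span of Foxa1, which ends at 57548029, and is not its outermost end. The same letters were present in 3.65% of 32851 promoters of this length. The GATA letters at the upstream start of Hnf4a begin 52 bases before it, and 11.2% of all promoters hold them. They were also found 183 bases before the most downstream of 3 starts of Foxa2. Neither motif was in the windows of Nkx2-1, Sox2 or Sox4. None of the 9 windows of the 6 genes searched held ACAATG (SOX, 12.6% of all promoters) or CACTTG (NKX2, 13.6%). No window of Gata6 or Sox9 was searched. GGGCGG (SP), present in 35.7% of all promoters, was found at Nkx2-1, Foxa1, Foxa2, Sox2 and the upstream start of Hnf4a, and TATAAA (13.6%) at Foxa2. A match describes letters only, and the table does not tell which start was used.

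**Figure D1:**
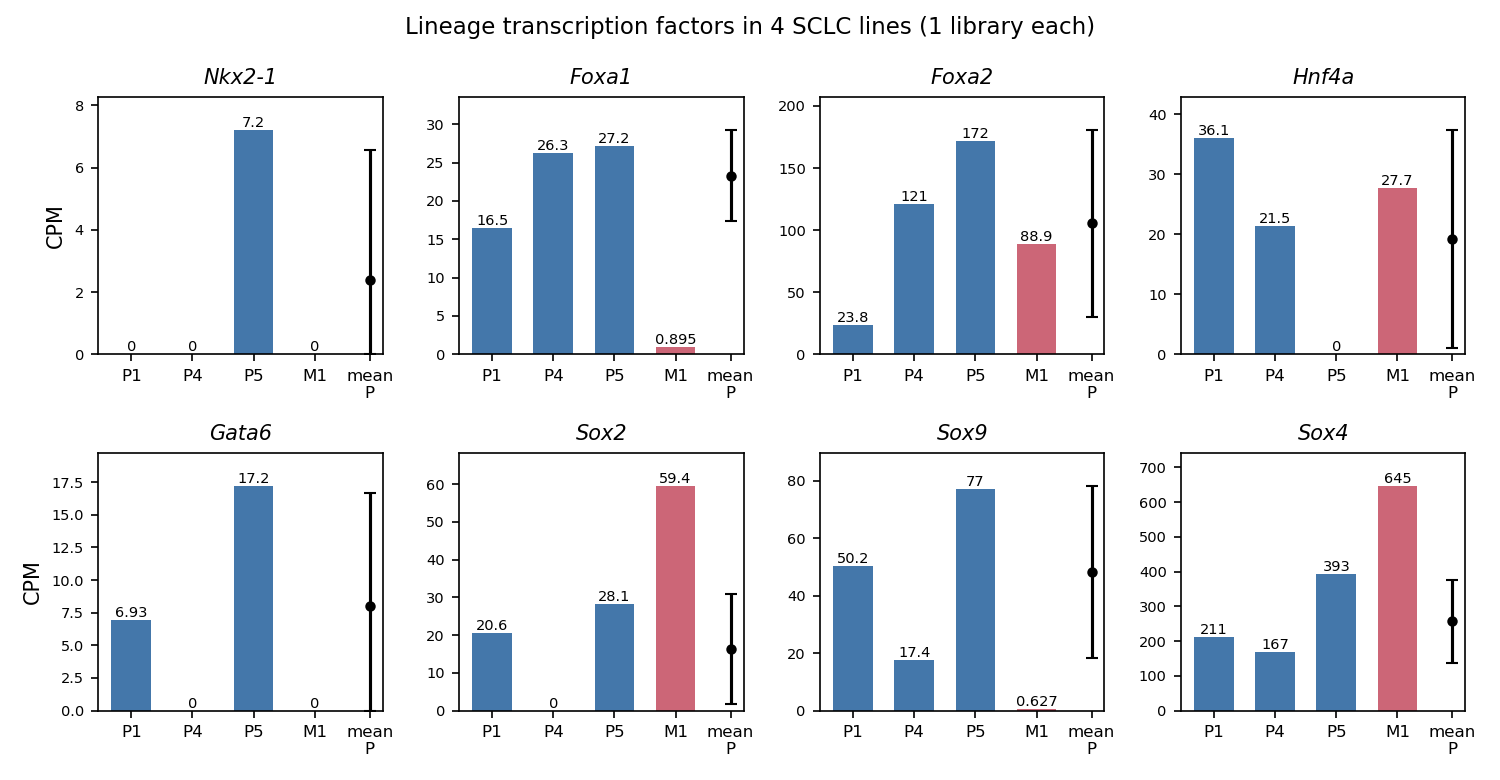
CPM of the 8 lineage factors in each line, with primary lines in blue and M1 in red, and the mean ± SD of the 3 primary lines as a black point whose lower bar stops at 0. Nkx2-1 is above 0 only in P5, Hnf4a is at 0 only in P5, and Foxa1 and Sox9 are under 1 CPM only in M1.

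Among the lung endoderm factors, Nkx2-1 (chromosome 12, 56531935 to 56536908 in mm10) was read in a single line. It was at 7.20 CPM in P5 (83 reads, interval 5.74 to 8.93 CPM) and listed at 0 in P1, P4 and M1. P1, whose library held nearly as many genes as that of P5, listed it at 0 although 3 reads would be 0.315 CPM there. P5 held 10375 genes at 5 CPM or more, of which 98 (0.945%) were at 0 in the other lines in this way. This range has no upper limit and was set after the values of Nkx2-1 were seen, so that it holds Nkx2-1 by construction.

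Genes that mark differentiated lung epithelium were low in every line. Of 16 such genes, 10 were above 0 in P5, 8 in P1, 1 in M1 and 0 in P4, and 1 reached 10 CPM in any line. This was Abca3, the lipid transporter of surfactant secretion, at 12.5 CPM in both P1 and P5 and 0.115 CPM in M1. The surfactant protein genes Sftpa1 and Sftpc were at 2.78 and 2.17 CPM in P5 and listed at 0 elsewhere, as Nkx2-1 was. The mucin gene Muc1 had a CPM of 9.87 (P1) and 0.694 (P5), and Ager, a gene of flat alveolar cells, one of 2.83 (P1) and 3.91 (P5). P1 thus held some lung genes without reads of Nkx2-1.

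P5 was also the line with neuroendocrine peptide and granule genes, with Calca at 183 CPM and Chga at 26.5 CPM against 0 in the other lines. Most markers of fibroblasts were highest in the same line. All 9 were above 0 in P5 and 8 in P1, with a summed level in P5 of 1124 CPM against 115 CPM in P1 and 33.7 to 38.5 CPM in P4 and M1. Of 7 endothelial markers, 4 were above 0 in P5, with a sum of 19.3 CPM against at most 0.329 CPM elsewhere. Pdgfra and Col3a1, listed here as fibroblast markers, were at 28.6 and 483 CPM in P5, whereas Dcn was higher in P1, at 21.8 CPM against 2.43 CPM. Whether P5 held fibroblasts or endothelial cells, and their part in its values, was not tested. In bulk libraries, fewer cells of a kind and less RNA per cell cannot be told apart.

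Foxa1 (chromosome 12, 57540628 to 57548029) had like values in the primary lines and was near 0 in M1. Its CPM was 16.5 (P1), 26.3 (P4), 27.2 (P5) and 0.895 (M1), the last from 10 reads (interval 0.429 to 1.65 CPM). The intervals of P4 and P5 overlapped, and the primary lines spanned 1.65-fold. The primary mean of 23.3 ± 5.93 CPM (SD, n = 3) was 26.0-fold above M1. M1 lay below every primary line, as it did for 20.7% of all genes tested. Ttc6, which overlaps Foxa1 in the annotation, had at most 4.34 CPM in a line, and the sources do not say whether reads were counted by strand.

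Nkx2-1 and Foxa1 lie on the same chromosome, 1003719 bases apart, but did not share a pattern. The 5 protein-coding genes of the table between them were low throughout. Pax9, a foregut factor gene, had a CPM of 7.77 (P1) and 6.89 (P5), Mipol1 one of 6.93 (P1) and 4.25 (P5), and neither was read in P4 or M1. Nkx2-9 was at 0 in all lines.

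Foxa2 (chromosome 2, 148042877 to 148046969) was read in all lines, M1 included. Its CPM was 23.8 (P1), 121 (P4), 172 (P5) and 88.9 (M1). M1 lay inside the range of the primary lines, which spanned 7.21-fold, with P1 lowest. The quotient of Foxa2 over Foxa1 CPM within a library was 1.45 (P1), 4.59 (P4), 6.32 (P5) and 99.3 (M1). Across genes of unlike length this quotient gives no order of the levels, but its change between lines does not depend on length. The third paralog, Foxa3, was at 0 in every line.

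Hnf4a (chromosome 2, 163506811 to 163572907), which encodes the nuclear receptor of hepatocyte and intestinal identity, showed the opposite of Nkx2-1. Its CPM was 36.1 (P1), 21.5 (P4) and 27.7 (M1), each from at least 298 reads, whereas P5 had none. A count of 3 reads in P5 would be 0.260 CPM. Between neighbours in this order the counting intervals did not overlap, with 32.4 to 40.1 CPM in P1, 24.7 to 30.9 CPM in M1 and 19.1 to 24.0 CPM in P4. The library of P5 held the most genes of all. Of 4432 genes with at least 10 CPM in P1, P4 and M1, 1 was listed at 0 in P5 (0.0226%), and this was Hnf4a. The range was set after its values were seen, so that Hnf4a is in the count by construction. The count also takes exact zeros only. Mrc1, named below, had 0.174 CPM in P5 and would be added under a looser limit. The antisense transcript Hnf4aos had at most 0.105 CPM in a line.

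Hnf4a and Nkx2-1 were thus never read in the same line. This holds for 4 lines and carries no test. Of genes at 5 to 50 CPM in P1 and P5, 39.8% were at 0 in P4 and 24.6% in M1. Since Nkx2-1 reached only 7.20 CPM in P5, its zeros in P4 and M1 add little. The genes nearest to Hnf4a in pattern were Mrc1, a mannose receptor known from macrophages, and Krt8, the simple epithelial keratin. Their centred log2(CPM + 1) profiles differed from that of Hnf4a by root mean squares of 0.26 and 0.56 over the 4 lines, the smallest of 10755 genes. The CPM of Mrc1 was 35.2 (P1), 15.9 (P4), 0.174 (P5) and 21.1 (M1), and that of Krt8 was 1543 (P1), 451 (P4), 32.5 (P5) and 454 (M1). The keratin genes Krt18 and Krt19 were likewise highest in P1 and lowest in P5, where they had 32.6 and 8.68 CPM. Other epithelial markers had another order: Krt7, Cdh1 and Epcam were highest in P5, at 135, 49.6 and 27.7 CPM. Of 10 epithelial markers, the number above 0 was 10 (P1), 4 (P4), 10 (P5) and 6 (M1).

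Gata6 (chromosome 18, 11052510 to 11085636) was read in P5 (17.2 CPM) and P1 (6.93 CPM) but not in P4 or M1. Since 15.4% of genes of this level shared these zeros, the pattern does not set Gata6 apart. The genes nearest to it, Glcci1 and the metalloprotease gene Adam12, had root mean square distances of 0.034 and 0.036. Of the 5 other GATA genes, 3 had reads in P1 and P5, and neither P4 nor M1 had reads of any. Gata3 and Gata4 had 17.1 and 8.19 CPM in P1 against 0.955 and 1.48 CPM in P5, so that P5 was higher for Gata6 and P1 for these paralogs. Gata2 was at 1.68 and 1.39 CPM.

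Other factors of the gut and liver had no common order. Of 14 such genes, 8 were above 0 in P1, 6 in P5, 3 in M1 and 1 in P4, and their summed level was 130, 142, 151 and 0.0720 CPM in that order. Cdx2, the intestinal homeobox factor, reached 43.8 CPM in P1 against 2.26 CPM in P5, with no reads in P4 or M1. Onecut2, a factor of liver and of neuroendocrine tumors, was highest in P5, at 108 CPM, against 65.3 CPM in P1, 9.40 CPM in M1 and 0.0720 CPM in P4. Prox1, a factor of liver, lymphatic and neural progenitors, reached 139 CPM in M1 and 21.2 CPM in P5, with at most 0.210 CPM in P1 or P4.

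Among differentiation genes of the gut, single genes stood out in P1 and P4. The intestinal lectin gene Lgals4 reached 193 CPM in P1 against 0.521 CPM in P5, with no reads in P4 or M1. Cdh17, the intestinal cadherin, had a CPM of 23.9 (P1), 0 (P4), 0.694 (P5) and 3.13 (M1). The gastric mucin gene Muc6 was at 18.1 CPM in P4 and at most 0.434 CPM elsewhere. Vil1, the brush border gene, was higher in P5, at 4.84 CPM against 1.89 CPM in P1. Of the 16 gastrointestinal genes, 7 were above 0 in P1, 6 in P5 and 1 each in P4 and M1, and 8 were at 0 in every line. Hepatocyte genes were scarce, with 7 of 14 at 0 in every line and at most 6.16 CPM for Afp, the fetal liver protein gene, in P5. Both libraries with few genes, M1 from the liver metastasis and P4, had 0 of 14 above 0.

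**Figure D2:**
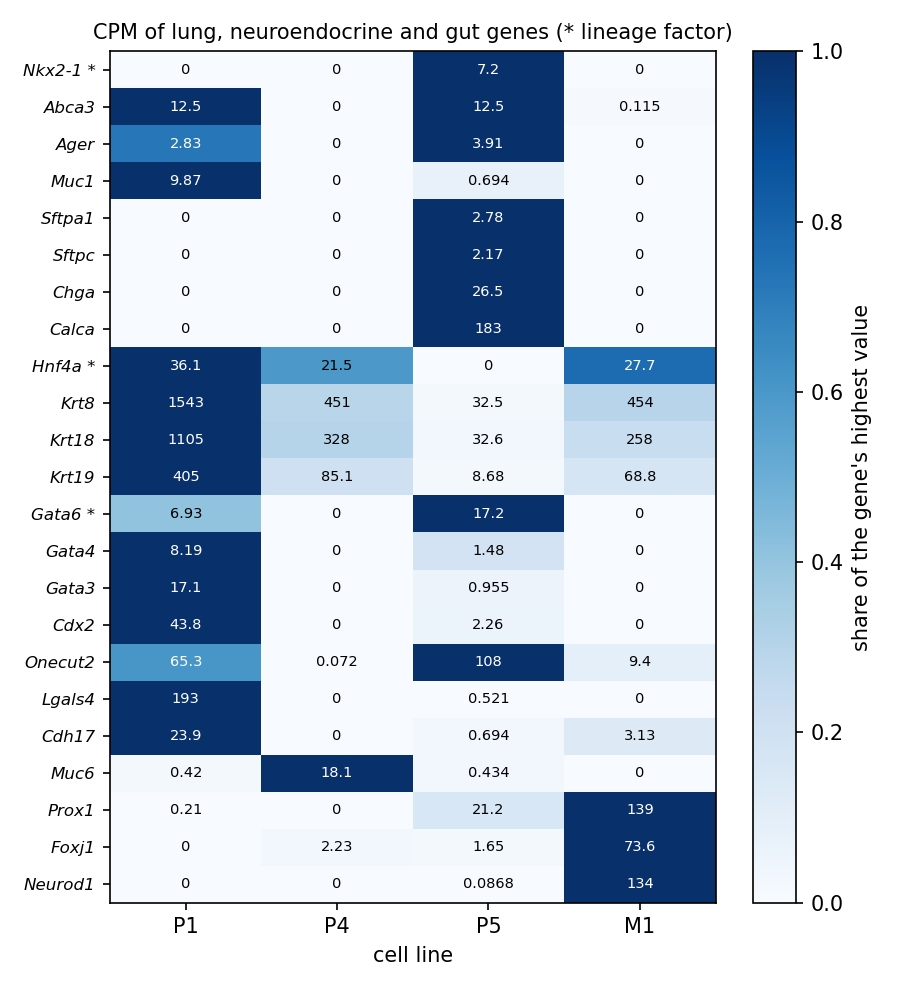
CPM of lung, neuroendocrine, epithelial and gut genes in each line, printed in each cell and shaded by the share of each gene's highest value, with lineage factors marked by an asterisk. Nkx2-1 shares its one line, P5, with Sftpc, Chga and Calca, and Hnf4a, Krt8, Krt18 and Krt19 are lowest in P5, which does not hold for every epithelial marker, while Cdx2 and Lgals4 are high in P1.

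The SOX factors split in M1. Sox2 (chromosome 3, 34649995 to 34652461) had a CPM of 20.6 (P1), 28.1 (P5) and 59.4 (M1), and no reads in P4. M1 was above every primary line, as it was for 22% of all genes tested. The counting intervals of P1 and P5, 17.8 to 23.7 and 25.1 to 31.4 CPM, did not overlap. Among the genes at 5 to 50 CPM in these primary lines, 24.4% were likewise at 0 in P4 and above 0 in M1. The genes nearest in pattern were Bcl7a, a subunit of a chromatin remodeling complex, and the choline transporter gene Slc44a1, with root mean square distances of 0.063 and 0.10. Sox2ot, the noncoding gene in which Sox2 lies, reached 10.7 CPM in M1 and 0.868 CPM in P5, with no reads in P1 or P4.

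Sox9 (chromosome 11, 112782210 to 112787757) had a CPM of 50.2 (P1), 17.4 (P4), 77.0 (P5) and 0.627 (M1). The value of M1 came from 7 reads (interval 0.252 to 1.29 CPM), below every primary line, as for 20.7% of all genes tested. The primary mean of 48.2 ± 29.8 CPM (SD, n = 3) was 76.9-fold above M1. Both Foxa1 and Sox9 were among the 5099 genes with at least 10 CPM in every primary line, of which 6.96% were below 1 CPM in M1. The nearest genes, the kinase gene Csnk1g1 and Paxbp1, were at 0.358 CPM and 0 in M1. Of 12 cartilage genes, the class that SOX9 is best known to activate, 7 were above 0 in P5, 4 in P1, 2 in M1 and 0 in P4. Acan, the cartilage proteoglycan gene, was highest in M1, at 21.8 CPM against at most 3.57 CPM in a primary line, and Col11a1 had 17.3 CPM in P5 against 7.07 CPM in M1. Col2a1 and Col9a2 were highest in P5, as Sox9 was, at 7.38 and 3.38 CPM.

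Sox4 (chromosome 13, 28948919 to 28953699) was read in every line. Its CPM was 211 (P1), 167 (P4), 393 (P5) and 645 (M1). M1 was 2.51-fold above the primary mean of 257 ± 120 CPM (SD, n = 3). It was above every primary line, as for 22% of all genes tested. Its nearest genes in pattern were Trnau1ap, which acts in selenoprotein synthesis, and the repressor gene E2f6, with distances of 0.089 and 0.12.

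Of the 16 other SOX genes, 7 reached 1 CPM in a line. Sox11, the close paralog of Sox4, had a like order in P1, P5 and M1, at 20.3, 142 and 167 CPM, but was listed at 0 in P4. Sox12, the third gene of that subgroup, had a CPM of 34.3 (P1) and 16.6 (P5) and no reads in P4 or M1. Sox21, a repressor related to Sox2, was highest where Sox2 was not read, at 43.0 CPM in P4 against 19.3 CPM in P5, 2.15 CPM in M1 and 0.315 CPM in P1.

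**Figure D3:**
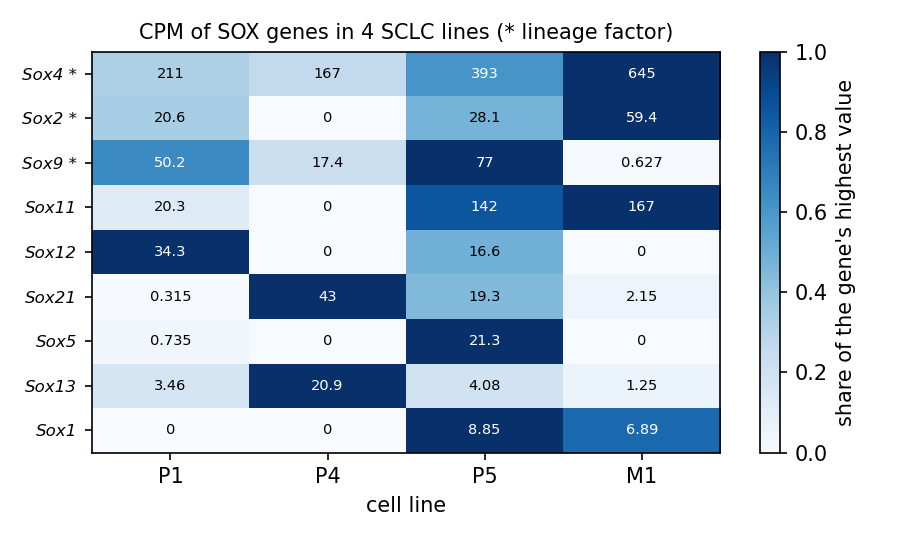
CPM of 9 SOX genes in each line, printed in each cell and shaded by the share of each gene's highest value, with lineage factors marked by an asterisk. Sox4, Sox2 and Sox11 peak in M1, Sox9 in P5 and Sox21 in P4.

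M1 was compared with the primary lines on log2(CPM + 1) with limma. M1 was thus set against the spread between the 3 primary lines, moderated for each gene toward a trend over all genes tested. Of 14888 genes tested, 0 (0%) passed an adjusted p of 0.05, and 1441 (9.68%) had an unadjusted p under 0.05. All 8 factors were tested, none through M1 alone, and 0 passed the threshold, while 2, Foxa1 and Sox9, were lower at an unadjusted p under 0.05, as were 5.15% of all genes. By place, 2 of 8 were above every primary line (all genes 22%) and 2 of 8 below (all genes 20.7%), shares near the background. In the 13 lists of other genes, 0 tested members passed the threshold in either direction. The list medians in log2 difference were -0.41 for other lung factors, -0.43 for other gut and liver factors, -1.74 for other SOX genes and -1.02 for lung epithelial genes. The most extreme were 4.18 for immune cell markers, with 5 of 7 tested through M1 alone, and -3.04 for fibroblast markers. The median over all genes tested was -0.53.

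For Sox9 the log2 difference was -4.69 ± 1.16 (SE; limma, adjusted p = 0.346), and for Foxa1 it was -3.65 ± 0.99 (SE; limma, adjusted p = 0.376). Sox4 differed by 1.42 ± 0.63 (SE; limma, adjusted p = 0.653) and Sox2 by 2.82 ± 2.41 (SE; limma, adjusted p = 0.721). The larger difference of Sox2 had the wider error, since its primary lines ran from 0 to 28.1 CPM. Hnf4a (1.61 ± 2.54), Gata6 (-2.39 ± 2.13), Nkx2-1 (-1.01 ± 1.57) and Foxa2 (0.16 ± 1.31) differed by less than their SE or, for Gata6, by slightly more. The median over the 8 factors was -0.43, against -0.53 over all genes tested. Relative to that median, the difference was -4.16 for Sox9, -3.12 for Foxa1, 3.35 for Sox2 and 1.95 for Sox4.

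Some of these directions rested on 1 line. Without P5, the line that lacked Hnf4a, the difference of Hnf4a was -0.010, and without P1, the line with the lowest Foxa2, that of Foxa2 was -0.69. The difference of Gata6 was -3.59 without P4 and -1.49 without P5, and that of Sox2 was 1.27 without P4. The summed level of 12 immune cell markers was highest in M1, at 181 CPM against 0.0720 to 12.1 CPM in the primary lines, while the number above 0 was 7 in M1 and also 6 (P1), 1 (P4) and 7 (P5). All 7 tested markers of this list were above every primary line in M1 (all genes 22%), of which 5 were tested through M1 alone. Lyz2, Laptm5 and Fcer1g were at 47.4, 39.1 and 39.2 CPM in M1. Ptprc and Cd3e were at 0 in M1, but Cd3e was at 0 and Ptprc at no more than 0.174 CPM in every line. Whether M1 held immune cells, and their part in its values, was not tested.

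**Figure D4:**
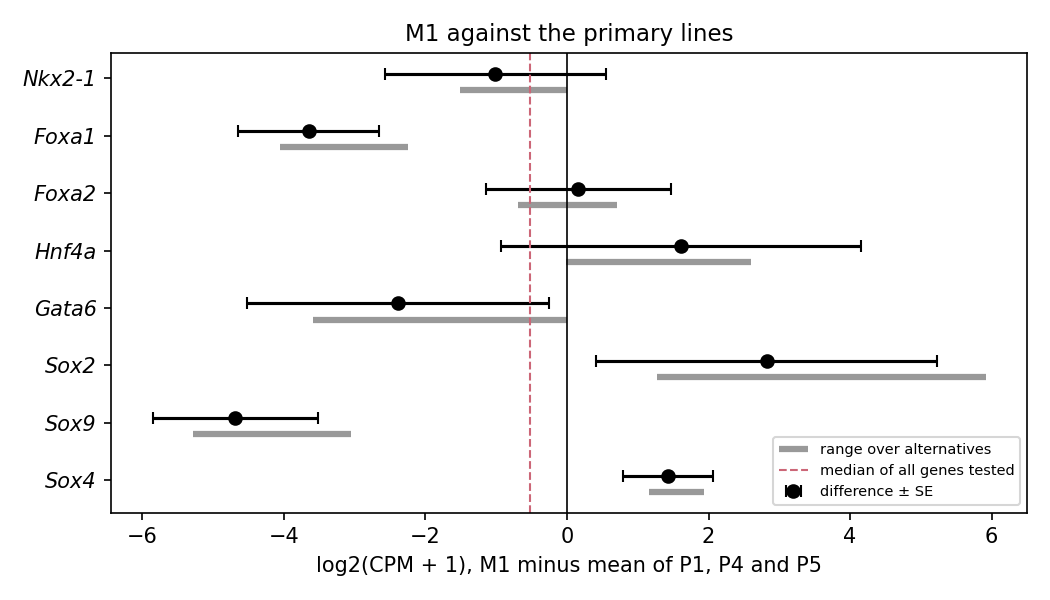
Difference of M1 from the mean of P1, P4 and P5 on log2(CPM + 1) for the 8 factors (points, bars ± SE from limma), the range over the alternative settings (grey) and the median of all genes tested (dashed line). Sox9 at -4.69 and Foxa1 at -3.65 lie farthest below 0, Sox2 and Sox4 lie above it under every setting, and no factor passed the adjusted threshold.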

How the data were processed

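Total RNA of 4 untreated SCLC lines was sequenced, 1 library per line. The labels name a total RNA kit and the study's methods a kit for 3' ends of mRNA. The submitters' processing notes give mm10; no source names the counting tool. The authors deposited CPM, summing to 1000000 per library, for 54838 rows. The 85 rows without a symbol (at most 0.0130% of a library) were left out and rows of 1 symbol summed. The most frequent value above 0 was taken as 1 read; 79.0% to 88.8% of values were then whole within 0.001 reads, so no count model was fitted.

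limma 3.58.1 (R 4.3.3; eBayes with trend, two-sided, Benjamini-Hochberg) was run on log2(CPM + 1) of the genes that reached 1 CPM in any library. Differences of low genes are understated on this scale. The error is that between primary lines, moderated by limma toward a trend over all genes, and so is not a gene's own spread alone. The residual degrees of freedom were 2, and the median total after moderation was 3.83. The single M1 library is taken to vary to the same degree. An exact permutation test with its 1-sided value doubled could not go below 0.5. Whether lines were cultured more than once is not stated. The script was tested on simulated data.

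The factors and 13 gene lists were chosen with earlier results of these data known. Named were the 8 factors, the 2 genes nearest to each factor with at least 10 CPM in a line (smallest root mean square distance of centred profiles), up to 3 genes with the highest CPM per list, and all lung epithelial and gut factor genes with at least 10 CPM, except for some genes that are not reported here. Others named (among them Sftpa1, Sftpc, Chga, Pdgfra, Dcn, Krt7, Cdh1, Epcam, Vil1, Col9a2 and the neighbours of Nkx2-1) were chosen after their values were seen.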

Additional observations from a re-analysis of the deposited data

How the results depend on the processing

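The count of 0 genes past the threshold held under 11 alternatives, with smallest adjusted p-values of 0.0664 to 0.890 (limma). These were pseudocounts of 0.5 and 5, no filter, a filter of 5 CPM in 2 libraries, median ratio scaling, quantile normalization, no trend, a library batch term and each primary line left out. Each fit holds a single M1 library, and the main fit has 2 residual degrees of freedom. Few differences could pass under such settings, so the repeated count says little about stability. Foxa1, Sox2, Sox9 and Sox4 kept their direction in all 11. Their log2 differences ranged from -4.06 to -2.24, 1.27 to 5.92, -5.28 to -3.05 and 1.16 to 1.94, and with a primary line left out from -3.87 to -3.53, 1.27 to 3.70, -5.28 to -4.24 and 1.16 to 1.78. The lowest value of Sox2 was found without P4, where it was listed at 0. The batch term, set from the low gene number of P4 and M1, compares M1 with P4. It turned Foxa2 to -0.44 and gave 0 for Nkx2-1 and Gata6, which were at 0 in both lines. With a line left out, Foxa2 ranged from -0.69 to 0.71, Hnf4a from -0.010 to 2.60 and Gata6 from -3.59 to -1.49. These turns follow from P1 having the lowest Foxa2 and P5 having no Hnf4a. Nkx2-1 was not tested without P5 or at 5 CPM in 2 libraries. Quantile normalization moved the median of all genes from -0.53 to -0.06 and changed no direction of a factor. No paired analysis was possible, since M1 goes back to another mouse than the primary lines. Factors under 1 CPM rest on 7 and 10 reads.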

Other observations

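Other lung transcription factor genes outside the 8 differed in how widely they were read. Of 22, 9 were above 0 in every line. In all, 17 reached 1 CPM in a line, and the number above 0 was 16 (P1), 11 (P4), 17 (P5) and 12 (M1). Foxp1, a forkhead repressor of lung development, had a CPM of 310 (P1), 269 (P4), 773 (P5) and 178 (M1). Klf5, an epithelial zinc finger factor, had a CPM of 330 (P1), 57.2 (P4), 180 (P5) and 155 (M1). Foxj1, the regulator of motile cilia, was highest in M1, with 73.6 CPM in M1 against no more than 2.23 CPM in P1, P4 or P5 (log2 difference 5.19 ± 1.48, SE; limma, adjusted p = 0.404). Its place above every primary line was shared by 4 of the 17 tested genes of the list, against 22% of all genes. Irx3, a homeobox factor gene, was read in P1 (29.2 CPM) and P5 (70.1 CPM) but not in P4 or M1, and Elf5 was read in M1 alone, at 3.22 CPM; both are named after their values were seen.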
